A study of Mus musculus with 11 samples.

Results

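The aryl hydrocarbon receptor (AHR) pathway genes examined in sorted liver endothelial cells (ECs) were Ahr, Arnt, Ahrr, Cyp1a1, Cyp1b1 and Tiparp. These 6 genes were chosen by name from the 29307 genes listed in the count table, and all 6 had enough counts to be tested. The libraries came from 10- to 12-week-old male C57BL/6J mice, either conventionally raised with a microbiota (CONV-R, n = 6) or germ-free (GF, n = 5), with 1 library per mouse. Both groups were untreated wild-type animals, so microbial status was the only labelled difference between them. Hepatic sinusoidal ECs were enriched on CD146 beads and then sorted for CD31, CD105 and CD146 before RNA sequencing. The library of GF mouse 2 stood apart, with 22674 genes that had a count against 15456 to 18495 in the other 10 libraries. Without it, edgeR gave log2 fold changes of 2.43 for Cyp1a1 (adjusted p = 0.0013), -2.82 for Ahrr (0.0143), -1.45 for Cyp1b1 (0.238), -0.17 for Ahr (0.73), 0.06 for Arnt (0.825) and -0.10 for Tiparp (0.703).

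AHR is a ligand-activated transcription factor that waits in the cytoplasm in a complex with the chaperone HSP90. Once bound by a ligand, it enters the nucleus, pairs with ARNT and binds DNA at a short core sequence near its target genes. Its ligands include environmental aromatic compounds, dietary indoles and tryptophan metabolites made by the host or by gut bacteria. Cyp1a1, Cyp1b1, Tiparp and Ahrr are classical targets, and the AHR repressor and TIPARP act back on the receptor as negative regulators.

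Of the 6 genes, 1 passed the test for a difference between GF and CONV-R ECs, Cyp1a1, and it was 5.41-fold higher in GF ECs (95% interval 3.26 to 8.97). The receptor and its partner did not pass the test, and neither did the other 3 targets. Ahrr and Cyp1b1 had lower estimates in GF ECs, opposite in direction to Cyp1a1. Among all 12905 genes tested, 7.48% passed the same threshold, an adjusted p below 0.05, with 4.80% higher and 2.67% lower in GF ECs. At an unadjusted p below 0.05 stood 2 of the 6, Cyp1a1 and Ahrr, against 23.0% of all tested genes. DESeq2 also called these 2, and it called 9.83% of the genes it could adjust. The median log2 fold change was -0.17 over the 6 genes and -0.01 over all tested genes.

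**Figure D1:**
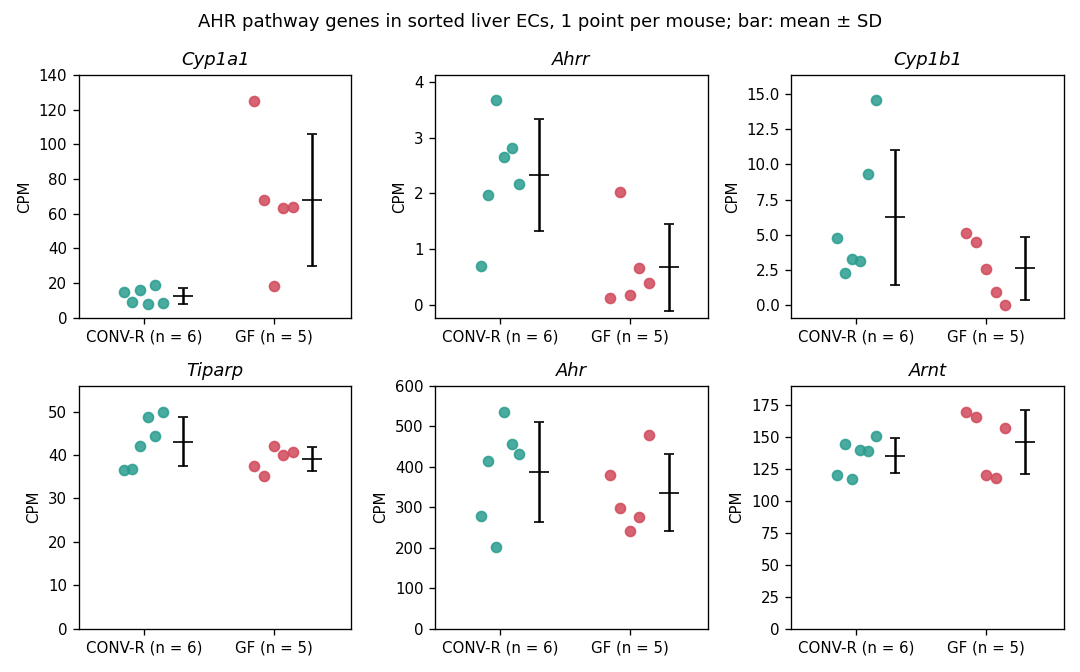
CPM (vertical axes, linear, each with its own range) of the 6 AHR pathway genes, with 1 point per mouse and the group mean ± SD beside the points. For Cyp1a1, 4 of 5 GF mice lay above every CONV-R mouse; for Ahrr, 4 of 5 GF mice lay below every CONV-R mouse; the groups overlapped for all 6 genes. The axes of Ahrr and Cyp1b1 start slightly below 0 so that low points stay visible.

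The sequences just upstream of 4 target genes are shown because the core that AHR and ARNT bind, GCGTG, can be located in them. They were taken from RefSeq on GRCm38.p6 and are written 5′ to 3′ on the strand of the gene, ending at the base before the start of transcription. Capitals mark GCGTG on the strand of the gene or its complement CACGC.
Cyp1a1: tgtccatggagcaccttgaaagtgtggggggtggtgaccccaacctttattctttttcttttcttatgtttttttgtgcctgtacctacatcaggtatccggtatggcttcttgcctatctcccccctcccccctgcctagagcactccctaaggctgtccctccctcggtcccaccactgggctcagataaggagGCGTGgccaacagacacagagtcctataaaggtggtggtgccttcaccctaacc
Ahrr: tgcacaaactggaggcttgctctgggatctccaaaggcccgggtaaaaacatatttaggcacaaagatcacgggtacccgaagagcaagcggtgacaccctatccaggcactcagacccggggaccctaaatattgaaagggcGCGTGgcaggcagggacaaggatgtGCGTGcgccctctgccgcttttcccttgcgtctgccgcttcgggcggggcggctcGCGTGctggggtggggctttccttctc
Cyp1b1: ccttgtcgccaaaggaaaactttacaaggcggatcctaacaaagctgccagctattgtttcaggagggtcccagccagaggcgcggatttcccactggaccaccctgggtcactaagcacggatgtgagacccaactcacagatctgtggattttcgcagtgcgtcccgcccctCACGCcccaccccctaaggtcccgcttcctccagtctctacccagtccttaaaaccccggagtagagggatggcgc
Tiparp: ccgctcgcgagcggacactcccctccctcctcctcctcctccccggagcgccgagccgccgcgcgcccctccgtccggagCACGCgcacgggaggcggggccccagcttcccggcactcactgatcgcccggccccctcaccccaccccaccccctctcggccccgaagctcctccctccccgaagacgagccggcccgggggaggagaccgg

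The Cyp1a1 window (chr9:57697363-57697612, plus strand) held 1 copy of the core, starting at position -54 from the window's end, and 0 copies of TNGCGTG. Sequence beyond these short windows was not searched, and binding of AHR to any copy was not tested. This window lay inside the span of Cyp1a1 in GENCODE M21, which starts further upstream, and overlapped no annotated exon. The Ahrr window (chr13:74292332-74292581, minus strand) held 3 copies, at positions -107, -82 and -27, of which 1 had the longer form TNGCGTG. Cyp1b1 (chr17:79715062-79715311, minus strand) and Tiparp (chr3:65528197-65528409, plus strand) each had 1 copy on the opposite strand, at positions -76 and -133. The windows of Ahrr and Cyp1b1 overlapped no annotated exon, and that of Tiparp, shortened to 213 bases at an annotated start, overlapped an exon of 4931440P22Rik. The window of Arnt (248 bases) held 1 copy and that of Cyp1a2, the liver-type relative of Cyp1a1, held none in 202 bases. RefSeq sequences were matched for 5 of the 6 genes. Over both strands, GCGTG stood in 28.2% of 32851 upstream windows of 250 bases and TNGCGTG in 4.1%, and the core is also 1 form of the core that hypoxia-inducible factors bind. All 4 windows shown held the core, and of these genes 1, Cyp1a1, passed the test.

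The 11 libraries held 7242717 to 16164588 counts, and the totals did not separate CONV-R from GF mice (p = 0.403 in an exact permutation test, two-sided). CPM, the counts scaled to library size, used TMM factors, and RPKM additionally divided them by the exon length of each gene. The sum of 12 sinusoidal EC markers ranged from 34546 to 41619 CPM in CONV-R and from 33272 to 46615 CPM in GF ECs (exact permutation p = 0.329). None of the 12 passed the edgeR test and DESeq2 called 0, while 6, Pecam1, Mcam, Cdh5, Stab1, Lyve1 and Oit3, had an unadjusted p below 0.05 with higher estimates in GF ECs, and the median log2 fold change of the list was 0.30. The shares of all genes were 7.48% in edgeR, 9.83% in DESeq2 and 23.0% at an unadjusted p below 0.05. The labelled cell type was represented by its markers in every library. Because each library is a bulk sample, fewer cells of a type and less RNA per cell cannot be told apart.

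Ahr, the receptor gene (chr12:35497974-35535038, GRCm38, minus strand), was the most abundant of the 6 per exon length. Its level was 278, 415, 202, 536, 457 and 431 CPM in CONV-R mice 1 to 6. It was 380, 298, 242, 276 and 479 CPM in GF mice 1, 2, 4, 5 and 6. The lowest and the highest value both came from CONV-R mice, so the GF range lay inside the CONV-R range. The means were 387 ± 123 CPM (SD, n = 6) and 335 ± 95.4 CPM (SD, n = 5). The log2 fold change of GF against CONV-R was -0.21 (SE 0.22, 95% interval -0.67 to 0.25, edgeR adjusted p = 0.624). The interval leaves room for a decrease or a small increase of the receptor transcript.

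Arnt, the gene of the nuclear partner that AHR shares with the hypoxia-inducible factors (chr3:95434388-95497240, plus strand), varied less between mice. Its lowest, median and highest values were 117, 139 and 151 CPM in CONV-R ECs and 118, 157 and 170 CPM in GF ECs. In 3 of 5 GF mice Arnt exceeded every CONV-R mouse, and the other 2 GF mice sat at the low end of the CONV-R range. The log2 fold change was 0.11 (SE 0.12, 95% interval -0.15 to 0.37, edgeR adjusted p = 0.644). In coefficient of variation, Arnt had 10.2% in CONV-R and 17.3% in GF ECs, against 31.9% and 28.5% for Ahr.

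Ahrr, the AHR repressor, which competes with AHR for ARNT and is itself an AHR target (chr13:74211118-74292331, minus strand), was close to the limit of detection. It had 9, 29, 30, 33, 35 and 28 counts in the 6 CONV-R libraries, which is 0.697, 1.98, 3.68, 2.65, 2.82 and 2.17 CPM. The GF libraries held 2, 21, 2, 5 and 3 counts, or 0.13, 2.02, 0.19, 0.66 and 0.406 CPM. GF mouse 2 stood within the CONV-R range, whereas the other 4 GF mice were below every CONV-R mouse. The log2 fold change was -1.76 (SE 0.62, 95% interval -3.07 to -0.45), with an unadjusted p of 0.0113 and an edgeR adjusted p of 0.095, so Ahrr did not pass the test. DESeq2 placed it just past the threshold (log2 fold change -1.78, adjusted p = 0.0456). Without GF mouse 2, edgeR gave -2.82 with an adjusted p of 0.0143. A two-sided exact permutation test of its CPM over the 462 splits of the mice gave p = 0.0173. The values over all mice rest on 164 counts in CONV-R and 33 in GF ECs, of which GF mouse 2 held 21, and the fit without that mouse rests on 2, 2, 5 and 3 counts in the GF libraries.

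Cyp1a1, the monooxygenase most often read as a marker of AHR activity (chr9:57687928-57703824, plus strand), was the gene that rose. Its level was 14.8, 9.27, 15.7, 8.18, 18.9 and 8.6 CPM in CONV-R mice 1 to 6. In GF mice 1, 2, 4, 5 and 6 it reached 125, 67.9, 18.4, 63.5 and 64.1 CPM. GF mouse 4 sat at the upper edge of the CONV-R range, GF mouse 1 was the highest of all, and the other 3 GF mice lay close together. The means were 12.6 ± 4.50 CPM (SD, n = 6) and 67.7 ± 37.7 CPM (SD, n = 5), from 903 and 3773 counts. The log2 fold change was 2.44 (SE 0.35, edgeR adjusted p = 0.000389). By p-value Cyp1a1 was the 64th of the 12905 tested genes, and by fold change the 66th of the 620 genes higher in GF ECs. The exact permutation test of its CPM gave p = 0.00866, where the smallest value possible is 0.00433. When each library was left out in turn, the log2 fold change stayed between 2.09 and 2.68 and the gene passed the threshold each time.

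The values that the authors normalized, read here as log2 from their range, also put Cyp1a1 higher in GF ECs, with 6.38 to 7.34 in CONV-R and 7.34 to 9.66 in GF ECs. In those values the difference of the means was 1.88 for Cyp1a1, -1.0 for Ahrr, -0.96 for Cyp1b1, -0.13 for Ahr, 0.10 for Arnt and -0.09 for Tiparp. Weakly counted genes are pulled together in that transform.

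Cyp1b1, a second CYP1 monooxygenase with a wider tissue range that also metabolizes steroids and retinoids (chr17:79701537-79715061, minus strand), did not follow Cyp1a1. Its level was 4.80, 2.32, 3.31, 3.13, 9.35 and 14.6 CPM in CONV-R mice and 5.12, 4.52, 2.57, 0.924 and 0 CPM in GF mice. CONV-R mice 5 and 6 were the highest, and GF mouse 6 had no count. The remaining CONV-R values overlapped with those of GF mice 1, 2 and 4. The log2 fold change was -1.20 (SE 0.63, 95% interval -2.52 to 0.13, edgeR adjusted p = 0.267), which did not pass the test.

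Tiparp, which encodes an ADP-ribosyltransferase that modifies AHR and limits its activity (chr3:65528410-65555518, plus strand), was steady between mice. Its lowest, median and highest values were 36.6, 43.2 and 50 CPM in CONV-R and 35.1, 40.0 and 42.1 CPM in GF ECs. The 3 highest mice were CONV-R mice, while the lowest was a GF mouse, and the groups overlapped. The log2 fold change was -0.14 (SE 0.12, 95% interval -0.40 to 0.12, edgeR adjusted p = 0.544). The upper bound corresponds to 1.09-fold, well below the lower bound of 3.26-fold for Cyp1a1.

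**Figure D2:**
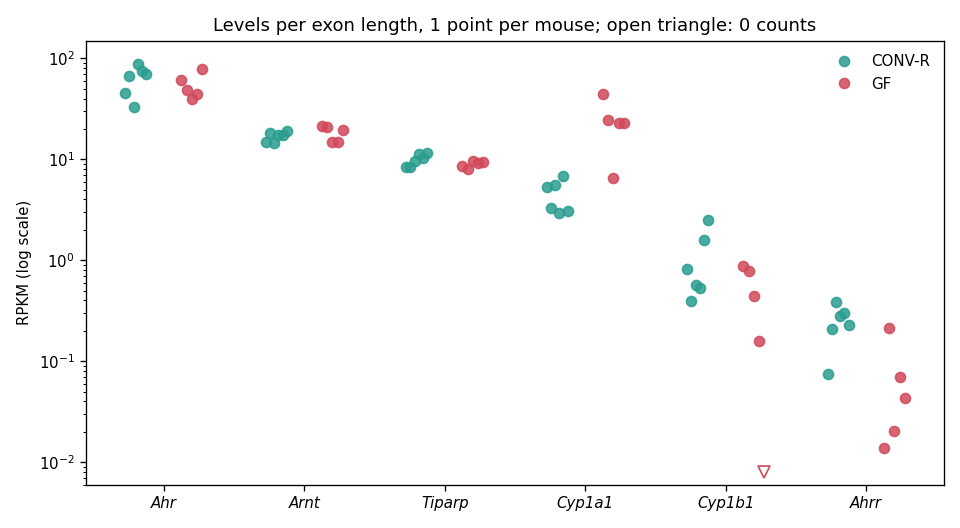
RPKM (vertical axis, log scale) of the 6 genes in each mouse, CONV-R left and GF right for each gene; the open triangle is the GF library with 0 counts of Cyp1b1. The CONV-R ranges of the 6 genes did not overlap each other, from Ahr (32.7 to 87.0) down to Ahrr (0.0739 to 0.389), whereas in GF ECs Cyp1a1 (6.59 to 44.7) reached into the ranges of Ahr, Arnt and Tiparp.

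Per exon length, the order of levels in CONV-R ECs was Ahr, Arnt, Tiparp, Cyp1a1, Cyp1b1 and Ahrr, and no range overlapped that of its neighbour. Mean RPKM was 62.7 for Ahr, 16.9 for Arnt, 9.89 for Tiparp, 4.51 for Cyp1a1, 1.07 for Cyp1b1 and 0.247 for Ahrr. The nearest neighbours were Cyp1b1, with a lowest value of 0.397 RPKM, and Ahrr, with a highest of 0.389 RPKM. In GF ECs Cyp1a1 stood at a mean of 24.3 RPKM, above Arnt at 18.3 and Tiparp at 8.97 and below Ahr at 54.3. Its range there overlapped those of all 3, so these neighbours did not separate. The Cyp1b1 and Ahrr ranges overlapped in GF ECs as well. In mean RPKM, Cyp1a1 exceeded 46.8% of the tested genes in CONV-R ECs and 87.5% in GF ECs.

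The level of Cyp1a1 was also set against each other gene of the pathway within the same mouse, as a difference of log2 CPM, a choice made after the values were seen. Against Arnt it averaged -3.48 ± 0.62 in CONV-R and -1.32 ± 0.84 in GF ECs, a shift of 2.16. Against Tiparp the shift was 2.39, from -1.83 ± 0.61 to 0.56 ± 1.07. Against the low genes the computed shifts were 3.89 for Cyp1b1 and 4.06 for Ahrr. Their size depends on the prior count of 2 added before the logarithm, because GF libraries held as few as 0 counts of Cyp1b1 and 2 of Ahrr. For these 4 comparisons no GF mouse overlapped with a CONV-R mouse, and the two-sided exact permutation test gave p = 0.00433, the smallest it can give. Against Ahr the shift was 2.43 and the groups overlapped slightly (exact permutation p = 0.00866). These 5 p-values are unadjusted and share the Cyp1a1 values. The same lack of overlap was found for the ratio of Cyp1a1 to 35.6% of the 12904 other tested genes.

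**Figure D3:**
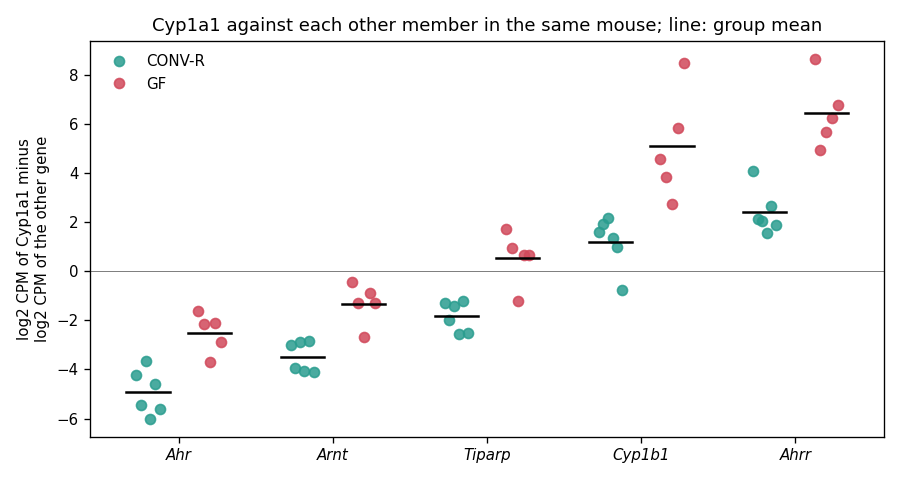
Difference between log2 CPM of Cyp1a1 and log2 CPM of each other gene in the same mouse (vertical axis), with 1 point per mouse and a line at each group mean. GF mice lay above all CONV-R mice for Arnt, Tiparp, Cyp1b1 and Ahrr; for Ahr the lowest GF mouse (-3.71) fell just below the highest CONV-R mouse (-3.67).

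Markers of other liver cells moved with the groups, and their values are given beside Cyp1a1. Kupffer cell markers, those of the resident liver macrophages, summed to 98.3 to 256 CPM in CONV-R and 235 to 1056 CPM in GF ECs (exact permutation p = 0.00866), and 6 of their 10 genes were higher. These 6 stand against 4.80% of all tested genes higher in GF ECs. Without GF mouse 6, which had the highest sum, Clec4f, Vsig4, Timd4 and Lyz2 lost the call (edgeR adjusted p 0.0777 to 0.135) and the log2 ratio of the sums went from 1.49 to 0.91. Some of these calls were also lost without CONV-R mouse 2, 3, 4 or 5 or GF mouse 2, with robust dispersion (Clec4f 0.0937, Vsig4 0.0568 and Lyz2 0.0791), in the limma voom fit (Timd4 0.0588) and with the hepatocyte sum as a covariate (Clec4f 0.0556, Vsig4 0.0588 and Timd4 0.0574). GF mouse 6 had 64.1 CPM of Cyp1a1, GF mouse 1, with the highest Cyp1a1, had a Kupffer cell sum of 293 CPM, and GF mouse 4 was the lowest of the GF mice in both Cyp1a1 (18.4 CPM) and this sum (235 CPM), next to GF mouse 5 with 63.5 and 261 CPM. Cholangiocyte markers, those of bile duct cells, summed to 0.136 to 8.94 CPM in CONV-R and 13.6 to 36.7 CPM in GF ECs, with no overlap (exact permutation p = 0.00433). Of these 5 genes 2 could be tested and 1 was higher, Spp1, which other cells also express. GF mice 4 and 5 had nearly the same cholangiocyte sum, 13.6 and 13.7 CPM, with 18.4 and 63.5 CPM of Cyp1a1. Spp1 alone ranged from 0 to 8.45 CPM in CONV-R and from 11.9 to 14.6 CPM in GF ECs, whereas Krt19, Krt7, Epcam and Sox9 were each at 0 in at least 1 library of both groups. The lack of overlap therefore rests largely on Spp1. The sums of GF mice 1 and 6, 26.9 and 36.7 CPM, exceeded the highest Spp1 value, so other genes of the list contributed there. Mean CPM in CONV-R and GF ECs was 0.592 and 4.51 for Krt19, 0.37 and 2.43 for Epcam, 0.204 and 0.85 for Krt7, and 0.165 and 0.738 for Sox9. Krt19, the other tested gene, had a log2 fold change of 2.87 (edgeR unadjusted p = 0.0115, adjusted p = 0.0959).

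Hepatocytes are a known site of strong Cyp1a1 induction. The 12 hepatocyte markers summed to 29.2 to 68.3 CPM in CONV-R and 42.1 to 92.8 CPM in GF ECs (exact permutation p = 0.329), and GF mouse 1 was highest for both this sum and Cyp1a1. None of the 11 hepatocyte markers tested with edgeR passed the threshold, 2 had an unadjusted p below 0.05, and DESeq2 called 0, beside 7.48%, 23.0% and 9.83% of all genes. The 2 were Ttr (2.49-fold, unadjusted p = 0.0226, edgeR adjusted p = 0.142) and Pck1 (2.32-fold, unadjusted p = 0.0365, edgeR adjusted p = 0.183), both with higher estimates in GF ECs. The median log2 fold change of the 11 was 0.33, against -0.01 over all tested genes. Only Apoa2 (-0.41) and Fabp1 (-0.37) had lower estimates in GF ECs. Alb, which made up most of the sum, was 27.9 ± 7.88 CPM in CONV-R and 32.6 ± 10.8 CPM in GF ECs. Cyp1a2, a hepatocyte CYP1 gene that is also an AHR target, had 26 counts over the CONV-R and 25 over the GF libraries, too few to be tested. With the hepatocyte sum as a covariate, Cyp1a1 kept a log2 fold change of 2.11 (edgeR adjusted p = 0.000824).

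With the Kupffer cell sum as a covariate, the log2 fold change of Cyp1a1 was 2.28 (SE 0.51), and the edgeR adjusted p rose to 0.0514. With the cholangiocyte sum it was 1.53 (SE 0.63, edgeR adjusted p = 0.356). Only 93 and 31 genes of all those tested passed under these covariates, against 965 without one. Since the cholangiocyte sums did not overlap between groups, microbial status and that sum cannot be told apart. All 3 covariates were chosen with the values in view, and the part of these cell types in the difference was not tested further.

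**Figure D4:**
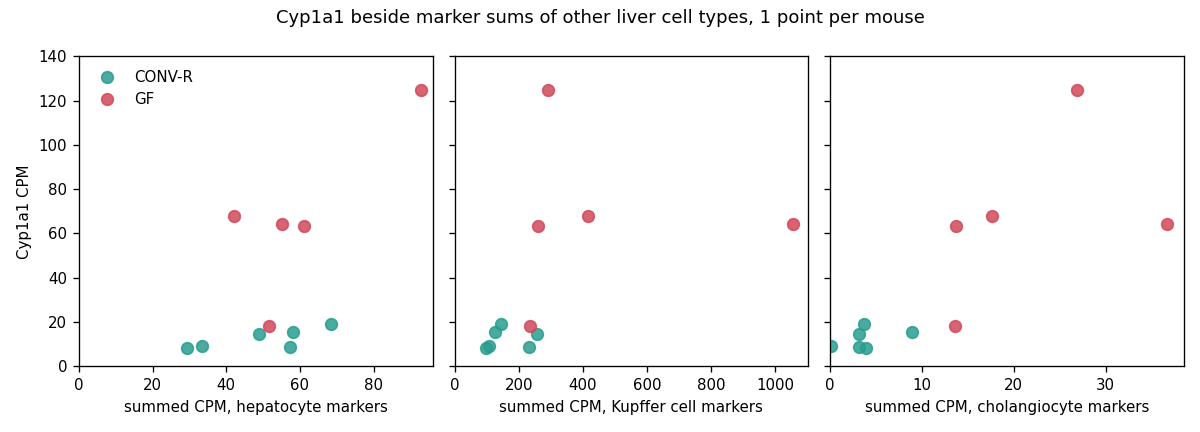
Cyp1a1 CPM (vertical axis) against the summed CPM of hepatocyte, Kupffer cell and cholangiocyte markers (horizontal axes), with 1 point per mouse. GF mouse 1 had the highest Cyp1a1 (125) and the highest hepatocyte sum (92.8), the highest Kupffer cell sum (1056) belonged to a GF mouse with 64.1 CPM of Cyp1a1, and GF mice 4 and 5, with Kupffer cell sums of 235 and 261 and cholangiocyte sums of 13.6 and 13.7, had 18.4 and 63.5 CPM of Cyp1a1.

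The wider pathway was read from lists of genes grouped by role. In the receptor complex and its co-regulators, 2 of 14 genes were higher and 1 was lower in GF ECs, against 4.80% and 2.67% of all tested genes. Hsp90aa1 and Hsp90ab1, the genes of the cytosolic HSP90 chaperones that hold AHR ready for its ligand, both rose. Hsp90aa1 went from 25.8 ± 4.30 to 53.6 ± 16.1 CPM without overlap, as 5.59% of all tested genes were (log2 fold change 1.06, edgeR adjusted p = 0.0018). Hsp90ab1 went from 534 ± 122 to 985 ± 372 CPM (0.88, edgeR adjusted p = 0.0197), and lost significance without CONV-R mouse 4 (0.0517), GF mouse 1 (0.0583) or GF mouse 4 (0.0546). With the Kupffer cell or the cholangiocyte sum as a covariate, the edgeR adjusted p was 0.0622 or 0.144 for Hsp90aa1 and 0.308 or 0.266 for Hsp90ab1, and with the hepatocyte sum it was 0.0629 for Hsp90ab1. Both have closely similar pseudogene copies in the genome, so their counts are uncertain to that extent.

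Nrip1, a co-repressor of nuclear receptors, fell from 306 ± 44.0 to 223 ± 35.0 CPM (log2 fold change -0.46, edgeR adjusted p = 0.0367). It no longer passed when CONV-R mouse 1, 2, 4, 5 or 6 or GF mouse 1, 4 or 5 was left out, with adjusted p up to 0.0849, or with the hepatocyte, Kupffer cell or cholangiocyte sum as a covariate (0.0836, 0.182 and 0.454). The co-activators Ncoa3, Crebbp and Ep300, the most abundant genes of the list that did not pass, had log2 fold changes of 0.02, 0.25 and 0.19. The median of the list was 0.12.

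Beyond the 6 genes, 16 further genes often listed as AHR targets were examined, of which 6 had enough counts and 2 were higher in GF ECs, against 4.80% of all tested genes. Slc7a5, a transporter of tryptophan and other large amino acids, rose from 44.7 ± 8.67 to 94.8 ± 17.8 CPM (log2 fold change 1.08, edgeR adjusted p = 0.00049). Nedd9, a scaffold protein of focal adhesions, rose from 94.8 ± 7.93 to 152 ± 12.3 CPM (0.68, edgeR adjusted p = 0.000585). Neither gene overlapped between the groups, and 3.19% of all tested genes were likewise higher in GF ECs without overlap. With the Kupffer cell or the cholangiocyte sum as a covariate, the edgeR adjusted p was 0.0545 or 0.0954 for Slc7a5 and 0.0955 or 0.144 for Nedd9. Both are controlled by many other signals besides AHR.

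The other members of this list gave no common direction. Nqo1, a quinone reductase shared by AHR and NRF2, had 10.9 ± 1.93 CPM in CONV-R and 6.80 ± 2.42 CPM in GF ECs (log2 fold change -0.68, edgeR adjusted p = 0.0968). Cyp2s1, another cytochrome P450, had a log2 fold change of 2.16 (edgeR adjusted p = 0.132) from 58 and 190 counts. Nfe2l2, the gene of NRF2, and Lpp stood at 0.26 and -0.01, and neither passed. The remaining 10 genes had too few counts, among them Cyp1a2, Aldh3a1, the Ugt1a genes, which share exons, and Gsta1 and Gsta2.

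**Figure D5:**
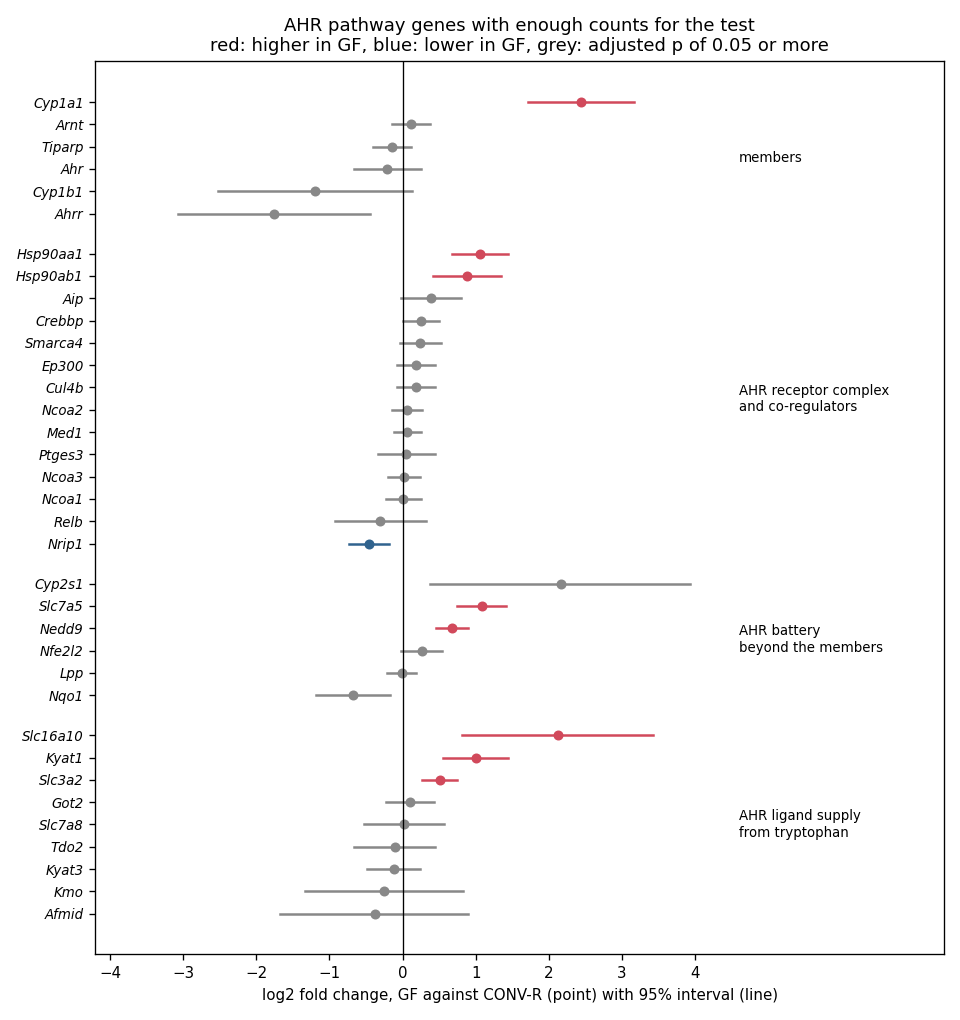
Log2 fold change of GF against CONV-R (horizontal axis) with its 95% interval for the tested genes of 4 lists; red marks genes higher, blue genes lower in GF ECs at an adjusted p below 0.05, and grey the rest. Cyp1a1 (2.44) was the only coloured gene among the first 6, beside 3 of 14, 2 of 6 and 3 of 9 in the other lists.

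Of 14 genes that supply AHR ligands from tryptophan or transport it, 9 were tested and 3 were higher in GF ECs, against 4.80% of all tested genes, and the median log2 fold change of the 9 was 0.02. Kyat1, a kynurenine aminotransferase, rose from 11.4 ± 1.78 to 22.6 ± 8.48 CPM (log2 fold change 1.00, edgeR adjusted p = 0.00811). Slc3a2, the heavy chain that pairs with the Slc7a5 transporter, rose from 151 ± 12.5 to 215 ± 32.2 CPM (0.51, edgeR adjusted p = 0.0113). With the Kupffer cell or the cholangiocyte sum as a covariate, the edgeR adjusted p was 0.225 or 0.711 for Kyat1 and 0.388 or 0.535 for Slc3a2.

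Slc16a10, a transporter of aromatic amino acids, had a log2 fold change of 2.12 from 53 and 141 counts (edgeR adjusted p = 0.0461). It lost the call in the limma voom fit (adjusted p = 0.141), with counts drawn down to the lowest total (0.0551), with the replicate block (0.0795), with the hepatocyte, Kupffer cell or cholangiocyte sum as a covariate (0.0856, 0.772 and 0.619) and without CONV-R mouse 1, 2, 3, 4 or 5 or GF mouse 1, 2, 5 or 6, with adjusted p up to 0.138. Ido1, Ido2, Kynu, Aadat and Il4i1, enzymes of tryptophan breakdown, had too few counts to be tested. Kyat3, Got2 and Slc7a8 stood at -0.12, 0.10 and 0.02 and did not pass.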

How the data were processed

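RNA of sorted hepatic ECs was amplified as whole-transcriptome cDNA and sequenced, with 1 library per mouse. The paper reports low viability of the sorted cells, and several-fold fewer cells and much less RNA from GF than from CONV-R livers. These differences in yield coincide with microbial status, and their part in the values was not tested. The authors trimmed the reads with Trim Galore, mapped them to GRCm38 with STAR and deposited raw counts per gene from featureCounts. They also deposited values normalized across libraries with the DESeq method, whose scale was taken as log2 from their range. The annotation release and strand setting are not given in the sources used here, and 1 further GF library was left out by the authors. The labels gave the groups, and ages and sex came from the study's methods.

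From the raw counts, edgeR 4.0.16 (filterByExpr, TMM, quasi-likelihood test) was fitted to all 12905 genes that passed the filter, in 11 libraries without a covariate, with Benjamini-Hochberg adjustment over all of them and a threshold of 0.05. Fold changes are GF against CONV-R. RPKM used GENCODE M21 exon lengths. For single values, exact permutation tests (two-sided) were run in SciPy 1.17.1, and log2 CPM used a prior count of 2. The alternatives were DESeq2 1.42.0, limma 3.58.1 (voom), other size factors and filters, robust dispersion, counts drawn down to 7242717, a replicate block, each library left out, and marker sums as covariates, which were added later. The genes, lists and motif were chosen with earlier results of these data known. Genes named from a list were those that passed the test and the 3 most abundant that did not; others were named after their values were seen.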

Additional observations from a re-analysis of the deposited data

Results flagged for a closer look

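Ahrr in GF mouse 2 stood apart from the other GF mice, with 2.02 CPM against 0.13 to 0.66 CPM in the other 4, and the gap was 0.719 of the range of the group. Dixon's criterion was applied to the 12 combinations of gene and group, and chance alone flags about 1 in 20. The value rests on 21 counts, and the same library had 22674 genes with a count against 15456 to 18495 in the other 10.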

How the results depend on the processing

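Cyp1a1 stayed past the threshold under every other normalization, filter and test tried, and its log2 fold change was 2.09 to 2.68 with 1 library left out. It lost the call with the Kupffer cell sum (2.28) or the cholangiocyte sum (1.53) as a covariate, where 0 of the 6 genes and 0 of the further AHR targets (2 without a covariate) passed. Ahrr passed with DESeq2 (-1.78), which brought the genes called to 2 of 6, and with 1 library left out it ranged from -2.82 to -1.46 and the genes called from 1 to 2. Ahr, Arnt, Cyp1b1 and Tiparp stayed below significance in every setting that gave a value. Of all tested genes, 965 passed in edgeR, 1527 in DESeq2, 627, 93 and 31 with the hepatocyte, Kupffer cell and cholangiocyte sums as covariates, and 622 to 1260 with 1 library left out; leaving out GF mouse 6 (622) or CONV-R mouse 4 (4.9% of tested genes) lowered it most. With 1 library left out, the log2 ratio of the summed stellate cell markers ranged from -0.42 to 0.11 and that of the lymphocyte markers from -0.11 to 0.21, around 0 in both; that of the stress list ranged from 0.52 to 0.98 and passed an exact permutation test without CONV-R mouse 2 (p = 0.0317) or GF mouse 5 (p = 0.0381). Requiring at least 10 counts in every library gave no value for Ahrr and Cyp1b1. The cause of these changes was not tested.

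Replicate numbers recur in both groups but name different mice, and deviations of same-numbered libraries correlated at 0.201, 0.048, -0.014, 0.024 and 0.094, so they were not taken as pairs. A fit with the replicate block, which leaves CONV-R mouse 3 without a partner, called 1096 genes, with Cyp1a1 at 2.38 and Ahrr at -1.91 (edgeR adjusted p = 6.01e-05 and 0.0649), and changed the call of none of the 6 genes; among the list genes it ended that of Slc16a10 (0.0795). Ahrr rests on 2 to 35 counts per library; with counts drawn down to the lowest total, Ahrr stood at -1.83 and Cyp1b1 at -1.11.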

Other observations

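Among the relatives of AHR and the partners of ARNT, 6 of 13 genes were tested with edgeR and 0 passed, with 1 at an unadjusted p below 0.05 and 0 called by DESeq2, beside 7.48%, 23.0% and 9.83% of all genes. Epas1, the hypoxia-inducible factor typical of ECs, had 2464 ± 121 CPM in CONV-R and 2966 ± 894 CPM in GF ECs. Clock and Hif1a had log2 fold changes of -0.00 and 0.18. Of the 21 genes that add or remove ADP-ribose, the family of Tiparp, 1 passed, which was 4.76% of those tested against 7.48% of all genes. That gene was Adprh, an ADP-ribosylarginine hydrolase, with 22.5 ± 2.20 CPM in CONV-R and 33.0 ± 7.78 CPM in GF ECs (log2 fold change 0.56, edgeR adjusted p = 0.0383). It lost the call without CONV-R mouse 2, 4, 5 or 6 or GF mouse 1, 2, 4 or 6, with adjusted p up to 0.111, without a filter on low counts (0.0566), and with the hepatocyte, Kupffer cell or cholangiocyte sum as a covariate (0.0567, 0.357 and 0.427). Parp14, Tnks2 and Zc3hav1 stood at 0.16, 0.13 and 0.24 and did not pass.

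The genes whose log2 CPM ran most nearly parallel to each AHR pathway gene over the 11 libraries are given as a description, since the points share libraries, depth and groups. For Cyp1a1 they were Epb41 (Pearson r 0.964), Map3k6 (0.940) and Gcnt2 (0.938), and Epb41 (0.967), Igdcc4 (0.950) and Tprn (0.923) after the group means were subtracted. Map3k6 was also higher in GF ECs (log2 fold change 2.85, edgeR adjusted p = 3.55e-06), as was Gcnt2 (1.30, edgeR adjusted p = 0.00289). Ahrr ran most nearly with Tdp2 (0.969), Zfp975 (0.955) and Vegfa (0.949), and Vegfa, the endothelial growth factor gene, was lower in GF ECs (-1.06, edgeR adjusted p = 0.00952). Casp8ap2 (0.975), Zfp948 (0.928) and Gclc (0.925) came closest to Ahr, Hook3 (0.930) to Arnt, Ect2 (0.952) to Cyp1b1 and Zfp30 (0.867) to Tiparp. Among the 6 genes themselves, Ahr and Arnt had the highest r (0.63), and Cyp1a1 had -0.59 with Ahrr and -0.13 with Ahr. Once group means were subtracted, Cyp1a1 and Ahrr stood at 0.09.

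The 10 genes of the stress and dissociation list summed to 922 to 2924 CPM in CONV-R and 1337 to 3881 CPM in GF ECs. The exact permutation p was 0.0996 over all mice, 0.0317 without CONV-R mouse 2 and 0.0381 without GF mouse 5. Hspa5 made up most of this sum, with means of 1251 ± 777 CPM in CONV-R and 2046 ± 1107 CPM in GF ECs (edgeR adjusted p = 0.302). Of 8 tested genes 1 was higher, Dusp1, against 4.80% of all tested genes. Its log2 fold change was 0.92 (edgeR adjusted p = 0.00019, and 0.22 with the cholangiocyte sum as a covariate). At an edgeR unadjusted p below 0.05 stood 2 genes, Dusp1 and Nr4a1, and DESeq2 called 2, beside 23.0% and 9.83% of all genes. Nr4a1, Fos and Egr1 had log2 fold changes of 1.46, 0.81 and -0.50 (edgeR adjusted p = 0.0626, 0.349 and 0.53). Stellate cell markers summed to 14.4 to 25.9 and 5.90 to 31.1 CPM (exact permutation p = 0.779) and lymphocyte markers to 17.8 to 38.7 and 19.6 to 40.6 CPM (exact permutation p = 0.784).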
